A study of Mus musculus with 24 samples.

Results

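Brown fat is built from more than brown fat cells: its RNA also comes from macrophages, capillaries, pericytes, blood and nerve sheath. The levels of 35 marker genes of these other cell classes were followed in whole brown adipose tissue (BAT) of mouse neonates. They were chosen by symbol from a list of 13 immune, 11 endothelial, 3 mural, 3 erythroid, 3 glial and 2 epidermal markers, and all 35 were found among 37041 genes in the expression tables. The study concerned nuclear factor I A (NFIA), a transcription factor of the NFI family. It held 24 polyA RNA-seq libraries in 8 groups of 3: tissue from wild-type neonates, tissue from neonates labelled NFIA-KO, and 6 groups of C2C12 myoblasts. C2C12 is an established mouse myoblast line. Cultures of control and of NFIA-expressing cells came from day 0, from day 7, and from day 7 with 10 uM forskolin, a drug that activates adenylyl cyclase, over the last 4 hours. The labels name neither the age in days of the neonates, nor the deleted part of Nfia, nor the construct that expressed NFIA, and they do not say whether a tissue library came from 1 animal or whether the cultures were separate. The p-values below therefore measure the spread between these libraries, which may be technical.

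As background, markers of a cell class are genes that those cells make in far larger amounts than their neighbours. Brown fat is one of the most densely vascularised tissues, and its capillaries deliver oxygen and fuel to heat-producing adipocytes and are maintained by vascular endothelial growth factor (VEGF) acting on the receptors encoded by Kdr and Flt1. Resident macrophages clear debris, and sympathetic nerve fibres wrapped by Schwann cells bring the signal that starts heat production. NFI proteins bind the letters TTGGC, most strongly as an inverted pair with 5 free bases between them.

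The tissue libraries held high levels of Ucp1, which encodes the uncoupling protein of brown adipocytes. It read 4073 to 7240 FPKM (fragments scaled by transcript length and library size) in wild type and 1445 to 1674 in libraries labelled NFIA-KO. There it fell by 1.73 ± 0.21 (SE) on the log2(FPKM + 1) scale (limma, adjusted p = 0.0175). Of 10 brown adipocyte genes, all tested, 3 fell and 0 rose, with 5 differences above 0 and 5 below. One of them, Fabp4, was listed at 0 in wild-type replicate 3, against 23063.8 and 21229.7 FPKM in wild-type replicates 1 and 2. Its difference (4.27 ± 3.62) counts above 0 only through that 0, as NFIA-KO read 13389 to 17211 FPKM. The targeted gene went against the labels. Nfia read 24.3, 32.8 and 32.6 FPKM in wild type and 44.6, 40.1 and 39.4 FPKM in the libraries labelled NFIA-KO, a difference of 0.47 ± 0.15 (limma, adjusted p = 0.0973). A gene-level FPKM does not show which exons were read, so it neither bears out nor contradicts a deletion of part of the gene, and directions below are those of the labels. Depth in reads is unknown. The FPKM of a tissue library summed to between 762822 and 845621, with 20832 to 21410 genes above 0. A list of 12 skeletal muscle genes stood apart. It summed to 68.6 to 165 FPKM in wild type and to 2215, 351 and 1183 FPKM in NFIA-KO replicates 1, 2 and 3, and 7 of its 9 tested genes rose (Acta1, Ckm and Myh8 by 3.55, 3.85 and 3.69).

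In the comparison of tissue labelled NFIA-KO with wild type, 30 of the 35 markers were tested and 1, S100b, fell; none rose. That is 3.33% of the tested markers, against 7.14% of the 13618 genes tested (3.59% higher, 3.55% lower). Differences were above 0 for 19 markers and below 0 for 11, with a median of 0.11 against -0.02 over all tested genes. At an unadjusted p under 0.05 stood 9 of the 30 markers, against 28.9% of all genes tested, the share beside which the unadjusted counts of the classes and lists below also stand. The libraries of the groups did not overlap for 11 markers, 3 with NFIA-KO above and 8 with NFIA-KO below, against 34.7% of all tested genes (16.5% above, 18.2% below). The other 5 markers, Cd3e, Cd79a, Sox10, Krt5 and Krt14, did not reach 1 FPKM in 3 tissue libraries and were not tested. None of these counts is read as a property of the markers. The calls depended on single libraries: 973 genes were called with all 6, 19 without wild-type replicate 1 and 1361 without wild-type replicate 2, with 0 to 3 markers among them.

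**Figure D1:**
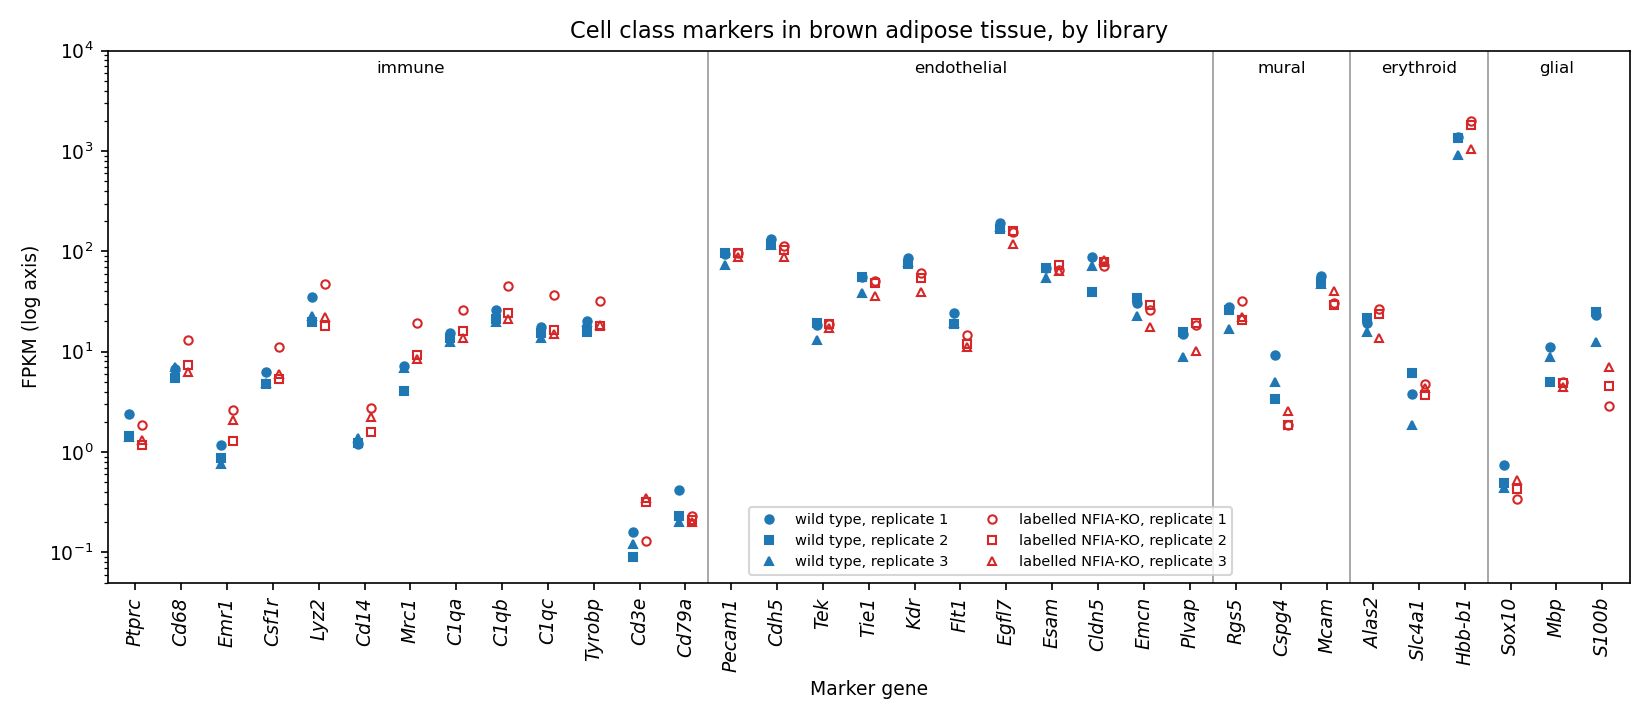
FPKM (log axis) of the 33 immune, endothelial, mural, erythroid and glial markers in each of the 3 wild-type (filled) and 3 NFIA-KO-labelled (open) tissue libraries, 1 point per library. S100b, Flt1, Kdr, Mcam and Cspg4 are lower in all 3 NFIA-KO libraries, and replicate 1 of NFIA-KO lies highest for most of the immune markers.

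S100b encodes a calcium-binding protein that is abundant in glia and is also made by fat cells. It read 23.3, 24.8 and 12.4 FPKM in wild-type replicates 1, 2 and 3 and 2.86, 4.58 and 7.04 FPKM in NFIA-KO replicates 1, 2 and 3. All 3 NFIA-KO libraries lay below all 3 wild-type libraries, with means of 4.83 ± 2.10 and 20.2 ± 6.78 FPKM (SD, n = 3 each). S100b fell by 1.87 ± 0.34 (SE) on the log2(FPKM + 1) scale, with a 95% interval of -2.67 to -1.06 (limma, adjusted p = 0.0329). This call did not hold in every fit without 1 library. The adjusted p of limma became 0.149 without wild-type replicate 1, 0.0599 without wild-type replicate 3, 0.068 without NFIA-KO replicate 1 and 0.101 without NFIA-KO replicate 2. The difference kept its direction in each case. Without wild-type replicate 3 it was larger, at -2.17 ± 0.31, while the number of genes called in all fell from 973 to 53. The call was also lost without the filter on low values (0.0853), with a replicate block (0.0532) and with the mean level of the muscle genes as a covariate. With that covariate the difference shrank to -1.15 ± 0.67 (limma, adjusted p = 0.599). The tables list S100b within a merged locus, chr10:75716598-75808036 in mm9, together with its neighbour Dip2a, which read 24.02, 14 and 24.1 FPKM in wild type and 9.10 to 12.2 FPKM in NFIA-KO (difference -0.85 ± 0.23, limma, adjusted p = 0.0678). Whether reads of the pair were split by strand is not stated. In bulk tissue, fewer cells of a type and less RNA per cell cannot be told apart.

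The 250 bases before the RefSeq start of S100b, at chr10:76253586-76253835 on the plus strand of GRCm38.p6, are shown because S100b was the marker that fell and because the factor under study binds TTGGC. They are followed by the windows of Flt1 (chr5:147726012-147726261, minus strand) and Mcam (chr9:44134408-44134657, plus strand), which together with S100b were higher in NFIA-expressing cells as described further on. Capitals mark TTGGC or its reverse complement GCCAA.
S100b: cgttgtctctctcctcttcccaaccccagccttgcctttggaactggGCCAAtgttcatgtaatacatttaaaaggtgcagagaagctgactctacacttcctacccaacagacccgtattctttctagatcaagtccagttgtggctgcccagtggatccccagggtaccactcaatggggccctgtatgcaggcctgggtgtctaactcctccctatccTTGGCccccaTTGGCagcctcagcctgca
Flt1: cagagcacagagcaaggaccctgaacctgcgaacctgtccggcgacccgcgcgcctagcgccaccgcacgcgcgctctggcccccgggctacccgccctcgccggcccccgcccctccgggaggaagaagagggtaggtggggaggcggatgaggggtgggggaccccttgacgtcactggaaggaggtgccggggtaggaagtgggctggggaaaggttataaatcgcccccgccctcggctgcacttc
Mcam: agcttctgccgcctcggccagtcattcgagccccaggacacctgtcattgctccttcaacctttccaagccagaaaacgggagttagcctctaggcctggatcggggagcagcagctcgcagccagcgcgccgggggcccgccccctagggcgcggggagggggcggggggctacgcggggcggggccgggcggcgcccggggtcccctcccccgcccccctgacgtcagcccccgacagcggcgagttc
The S100b window holds the letters 3 times, 203, 29 and 19 bases before the start, a number reached by 2.68% of the 32851 windows of this length in the RefSeq table. The windows of Flt1 and Mcam hold none. Windows were at hand for 23 of the 35 markers, and 9 of them have TTGGC on either strand in at least 1 window, while 41.5% of all windows have it. The paired form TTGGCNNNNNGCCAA was in no marker's window and in 0.0365% of all windows. These matches describe letters, not binding.

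The other glial markers did not follow S100b closely. Mbp, which encodes myelin basic protein, read 11.2, 4.99 and 8.81 FPKM in wild type and 4.96, 4.93 and 4.41 FPKM in the libraries labelled NFIA-KO. The groups did not overlap, but wild-type replicate 2 lay within 0.1 FPKM of NFIA-KO, and the difference of -0.63 ± 0.26 was not called (limma, adjusted p = 0.159; 0.0267 without wild-type replicate 2). Sox10, the transcription factor that defines Schwann cells, stayed between 0.34 and 0.74 FPKM in all 6 libraries. Of 17 further genes of glia and nerve, 6 were tested, 0 fell and 1 rose. The one that rose was Pmp22, a myelin protein also made by many other cells, at 21.2 to 36.8 FPKM in wild type and 47.2 to 75.5 FPKM in NFIA-KO (difference 1.09 ± 0.24, limma, adjusted p = 0.0463). Summed, the 17 genes read 28.54 to 45.4 FPKM in wild type and 58.05 to 84.25 FPKM in NFIA-KO, with Pmp22 the largest part. Set against Adipoq, the adipocyte hormone adiponectin, S100b read 0.0144 to 0.0295 in wild type and 0.00387 to 0.00867 in NFIA-KO. This ratio and those per Pecam1 and Lyz2 below were chosen after the values were seen and are given without a test.

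**Figure D2:**
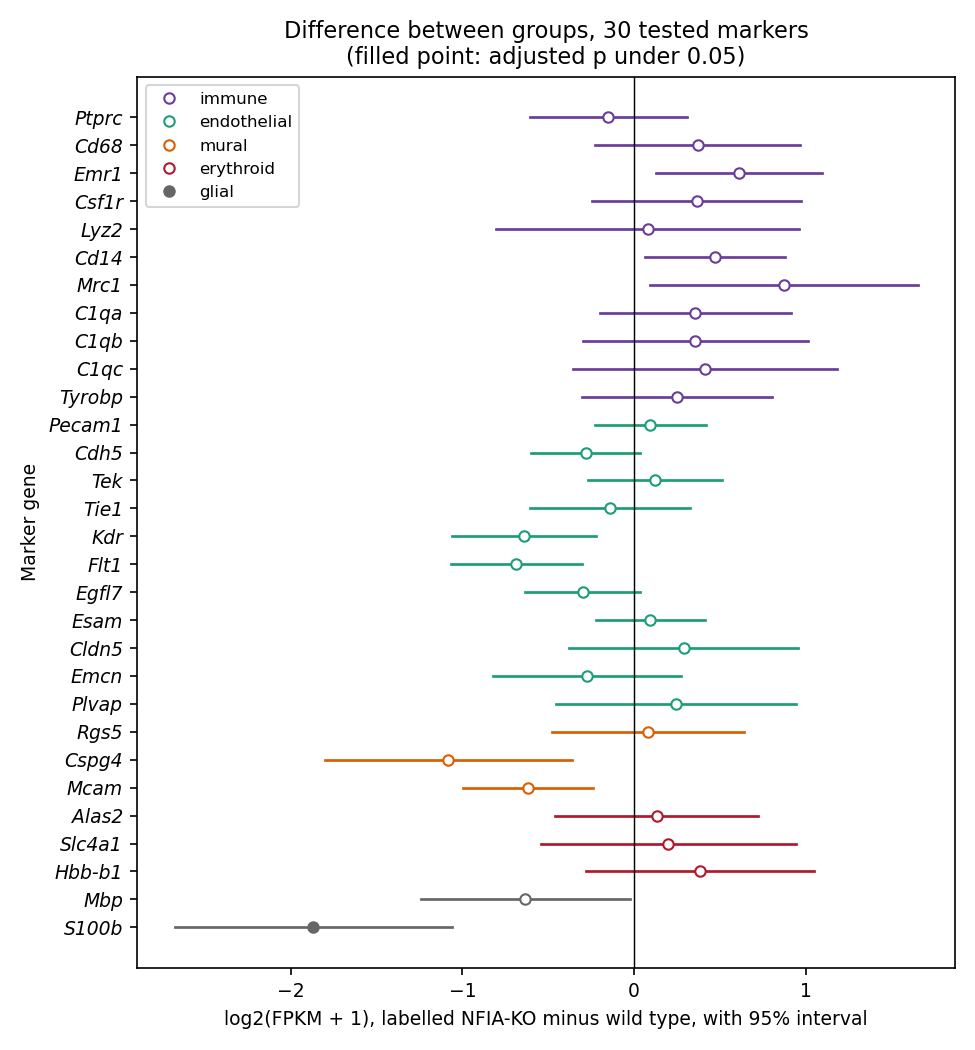
Difference in log2(FPKM + 1) between tissue labelled NFIA-KO and wild type for the 30 tested markers, coloured by class, with 95% intervals from limma. S100b is the only filled point (adjusted p under 0.05); the intervals of Flt1, Kdr, Mcam, Cspg4 and Mbp also lie below 0 before adjustment over all genes, and those of Emr1, Cd14 and Mrc1 above 0.

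The endothelial markers had the highest median level of the 6 classes, 63.3 FPKM in wild type. All 11 were tested and 0 were called by limma (2 at an unadjusted p under 0.05), with 5 differences above 0, 6 below and a median of -0.14. Pecam1, which encodes the junction protein CD31 and is widely used to count endothelium, read 93.9, 97.1 and 73.5 FPKM in wild type and 96.3, 96.1 and 88.2 FPKM in NFIA-KO. Its difference was 0.09 ± 0.14, with a 95% interval of -0.23 to 0.42 (limma, adjusted p = 0.686). The claudin gene Cldn5, the adhesion gene Esam and the angiopoietin receptor gene Tek also overlapped between groups, with differences of 0.29, 0.09 and 0.12.

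The VEGF receptor genes lay lower in each NFIA-KO library without passing the test. Flt1, which encodes VEGF receptor 1, a tight binder of VEGF that signals weakly, read 24.3, 19.1 and 19.3 FPKM in wild type and 14.8, 11.99 and 11.1 FPKM in NFIA-KO. All 3 NFIA-KO libraries lay below wild type, and the difference of -0.69 ± 0.16 stood at the threshold (limma, adjusted p = 0.0501); over the alternatives, the adjusted p ranged from 0.0397 under quantile normalisation to 0.506 with the mean level of the muscle genes as a covariate. Kdr, which encodes VEGF receptor 2, the main signalling receptor, read 86.9, 74.3 and 78.5 FPKM in wild type and 61.5, 53.9 and 39.4 FPKM in NFIA-KO. Its difference was -0.64 ± 0.18 (limma, adjusted p = 0.0703). The groups did not overlap for Cdh5 either, the gene of VE-cadherin, at 116 to 134 and 87.4 to 113 FPKM (difference -0.28 ± 0.13, limma, adjusted p = 0.213). The same was true of Egfl7, a secreted endothelial factor and the highest of the endothelial markers, at 166 to 190 and 120 to 158 FPKM (difference -0.30 ± 0.14, limma, adjusted p = 0.213). Egfl7 is listed in 1 merged locus with Agpat2 and Fam69b, both of which fell. Tie1, Emcn and Plvap overlapped, with differences of -0.14, -0.27 and 0.25 and spreads as large.

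As Pecam1 overlapped between the groups, the receptors were also set against it within each library. Kdr per Pecam1 was 0.925, 0.765 and 1.07 in wild type and 0.638, 0.561 and 0.447 in NFIA-KO. Flt1 per Pecam1 was 0.259, 0.197 and 0.262 against 0.154, 0.125 and 0.125. Both ratios were lower in every NFIA-KO library, as was that of Cdh5, at 1.23 to 1.57 in wild type and 0.991 to 1.18 in NFIA-KO. Tie1 per Pecam1 separated only narrowly, with a lowest wild-type value of 0.524 and a highest NFIA-KO value of 0.521. Tek per Pecam1 overlapped at 0.180 to 0.201 and 0.195 to 0.198. Of 18 other endothelial genes, 17 were tested and 0 were called by limma (3 at an unadjusted p under 0.05), 4 above and 13 below 0, with a median of -0.23. Among them Eng, a co-receptor of the TGF-beta family, read 63.7 to 91.9 FPKM in wild type and 38.2 to 51.8 FPKM in NFIA-KO (difference -0.68 ± 0.19, limma, adjusted p = 0.0698). Gpihbp1, which holds lipoprotein lipase on the capillary wall and had the highest level of that list, read 191 to 224 and 120.1 to 195 FPKM.

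**Figure D3:**
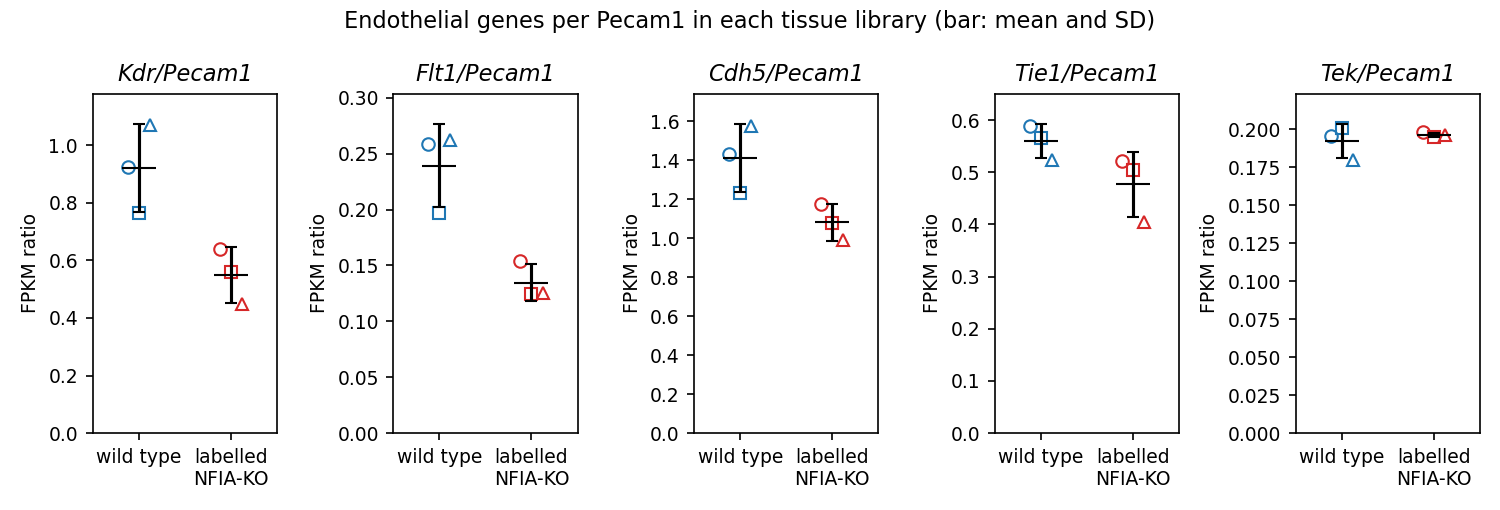
Ratio of the FPKM of Kdr, Flt1, Cdh5, Tie1 and Tek to that of Pecam1 in each tissue library, with the mean and SD of 3 libraries per group. The ratios of Kdr, Flt1 and Cdh5 are lower in all 3 NFIA-KO libraries than in all 3 wild-type libraries. Those of Tie1 are lower only narrowly, and those of Tek overlap.

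Of the mural markers, 2 of 3 lay lower in each NFIA-KO library and 0 were called by limma (2 at an unadjusted p under 0.05). Cspg4, which encodes the NG2 proteoglycan of pericytes and glial progenitors, read 9.26, 3.38 and 5.03 FPKM in wild type and 1.84, 1.85 and 2.54 FPKM in NFIA-KO. The difference was -1.08 ± 0.31 (limma, adjusted p = 0.0736; 0.0312 without wild-type replicate 2), and the wild-type spread came mostly from replicate 1. Mcam, which encodes the adhesion protein CD146 of pericytes and endothelium, read 57.1, 49.2 and 47.6 FPKM in wild type and 30.2, 29.2 and 40.7 FPKM in NFIA-KO. Its difference was -0.62 ± 0.16 (limma, adjusted p = 0.0612; 0.0413 without NFIA-KO replicate 3). Rgs5, the regulator of G protein signalling that is most used to mark pericytes, overlapped between groups at 27.9, 26.2 and 16.9 and at 31.9, 20.8 and 22.2 FPKM, a difference of 0.08 ± 0.24. Of 10 further pericyte and smooth muscle genes, all tested, 0 were called by limma (5 at an unadjusted p under 0.05), with 8 differences below 0 and a median of -0.34. Acta2, smooth muscle actin, read 42.5 to 53.3 FPKM in wild type and 29.97 to 34.8 FPKM in NFIA-KO (difference -0.53 ± 0.13, limma, adjusted p = 0.0566), and Pdgfrb, the PDGF receptor of pericytes, overlapped at 22.8 to 34.1 and 25.0 to 26.5 FPKM.

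The immune markers were those of macrophages. Lymphocyte genes lay under 1 FPKM: Cd3e, a chain of the T cell receptor complex, lay between 0.09 and 0.35 FPKM and Cd79a, a chain of the B cell receptor complex, between 0.20 and 0.42 FPKM. Of 9 further lymphocyte genes 0 could be tested; Cd79b, the partner chain of Cd79a, was the highest at 0.72 to 0.99 FPKM, and Cd3g, another chain of the T cell receptor complex, lay between 0.06 and 0.69 FPKM. Ptprc, which encodes CD45 on all white blood cells, read 2.37, 1.45 and 1.42 FPKM in wild type and 1.88, 1.18 and 1.33 FPKM in NFIA-KO, a difference of -0.15 ± 0.19. All 10 macrophage markers had a difference above 0, and 0 were called by limma (3 at an unadjusted p under 0.05). With Ptprc, the 11 tested immune markers had a median difference of 0.36.

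The macrophage markers were highest in the same library. Replicate 1 of NFIA-KO had the highest value of the 6 tissue libraries for 10 of 10 macrophage markers, while it was the highest for 18.9% of all tested genes. C1qa, C1qb and C1qc encode the chains of the complement protein C1q, which resident macrophages secrete. C1qb read 25.9, 21.3 and 19.8 FPKM in wild type and 45.1, 24.6 and 21.1 FPKM in NFIA-KO, so that replicates 2 and 3 lay within or near the wild-type range. C1qc read 17.8, 15.3 and 13.6 FPKM in wild type and 36.9, 16.5 and 14.97 FPKM in NFIA-KO, and C1qa followed, with C1qa per C1qb between 0.575 and 0.653 in all 6 libraries. The same pattern held for Csf1r, the receptor for the growth factor on which macrophages depend, at 6.31, 4.79 and 4.92 and at 11.04, 5.33 and 6 FPKM. It held for the lysosomal protein gene Cd68, at 6.65, 5.49 and 7.01 and at 13.0, 7.43 and 6.26 FPKM, and for the signalling adaptor gene Tyrobp, at 20.3, 15.7 and 19.7 and at 32.0, 18.2 and 18.5 FPKM. The lysozyme gene Lyz2 read 35.2, 19.9 and 22.5 FPKM in wild type and 47.2, 17.9 and 22.0 FPKM in NFIA-KO. The 10 markers summed to 116 ± 18.4 FPKM in wild type and 156 ± 68.8 FPKM in NFIA-KO (SD, n = 3 each), a ratio of 1.35 that became 1.005 without replicate 1 of NFIA-KO.

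For 3 macrophage markers the NFIA-KO libraries lay above all wild-type libraries, and none passed the test. Mrc1, which encodes the mannose receptor CD206 of tissue-resident macrophages, read 7.14, 4.03 and 6.80 FPKM in wild type and 19.2, 9.22 and 8.45 FPKM in NFIA-KO (difference 0.87 ± 0.33, limma, adjusted p = 0.14). Without replicate 1 of NFIA-KO its difference was 0.52. Emr1, the gene of the macrophage surface protein F4/80, read 1.18, 0.87 and 0.76 FPKM in wild type and 2.63, 1.28 and 2.10 FPKM in NFIA-KO (difference 0.61 ± 0.20, limma, adjusted p = 0.107), and passed the filter on low values with all 3 NFIA-KO libraries and 1 wild-type library. Cd14, a co-receptor for bacterial lipopolysaccharide, read 1.19, 1.24 and 1.37 FPKM in wild type and 2.73, 1.57 and 2.22 FPKM in NFIA-KO (difference 0.47 ± 0.17, limma, adjusted p = 0.129). Within a library, Mrc1 per Lyz2 was 0.203, 0.203 and 0.303 in wild type and 0.407, 0.517 and 0.385 in NFIA-KO, without overlap.

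Other gene lists moved with that library. Of 11 tested genes in a further macrophage and leukocyte list, 0 were called by limma (1 at an unadjusted p under 0.05). Their differences were above 0 for 7 and below 0 for 4. The gene under 0.05 was Cd52, which went down, from 6.02 to 10 FPKM in wild type to 4.23 to 4.86 FPKM in NFIA-KO. In that list 8 of the 11 were highest in replicate 1 of NFIA-KO, among them Fcer1g at 33.5 FPKM against 12.6 to 18.4 in wild type. The muscle genes were highest there for 9 of 9 tested. A list of 8 granulocyte and mast cell genes had 5 tested, with 3 differences above 0 and 2 below. Those below were S100a8 (-0.20) and S100a9 (-0.23), which had the highest wild-type levels of the list. The 3 tested mast cell genes in it were those above 0, and 2 of them rose. Cpa3, a mast cell carboxypeptidase, read 17.2, 12.3 and 16.6 FPKM in wild type and 78.9, 28.5 and 57.5 FPKM in NFIA-KO (difference 1.67 ± 0.35, limma, adjusted p = 0.0417). Cma1, a mast cell chymase, rose by 1.69 (limma, adjusted p = 0.0438). All 8 genes of the list summed to 178 to 254 FPKM in wild type and 235 to 357 FPKM in NFIA-KO, with overlap. The 4 mast cell genes, split off from that list, summed to 23.7 to 38.6 FPKM in wild type. They summed to 170, 61.1 and 121 FPKM in NFIA-KO replicates 1, 2 and 3, and ranked the NFIA-KO libraries as the muscle genes did. Muscle content and the group cannot be told apart in 6 libraries. With the mean level of the muscle genes as a covariate, 9 of the 11 immune differences changed sign, 1 gene in all was called and 0 markers were.

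**Figure D4:**
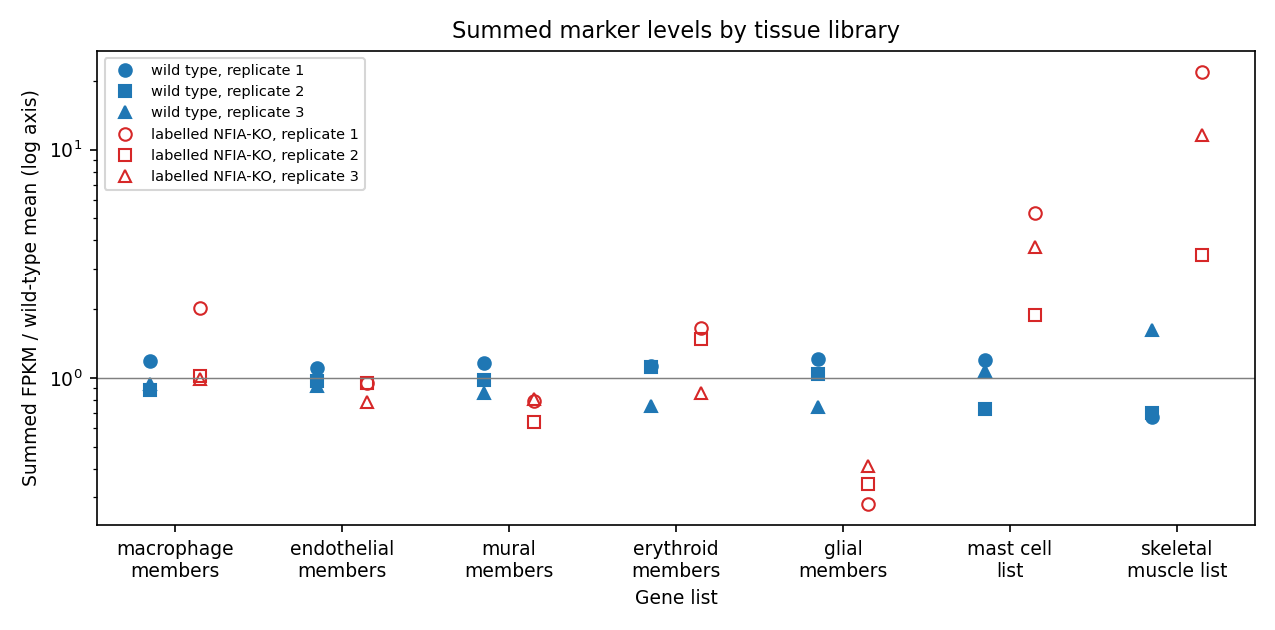
Summed FPKM of gene lists in each tissue library, divided by the wild-type mean (log axis), for the macrophage, endothelial, mural, erythroid and glial markers. Also shown are 4 mast cell genes, split off from the granulocyte and mast cell list, and the list of 12 skeletal muscle genes. The macrophage sum is raised in replicate 1 of NFIA-KO alone, and the mast cell and muscle sums are higher in all 3 NFIA-KO libraries. The sum of the 3 glial markers, most of it S100b in wild type, is lower in all 3. The list of 17 further glia and nerve genes, not drawn, summed higher in all 3.

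Red cell genes varied between libraries of both groups. Hbb-b1, which encodes adult beta globin, read 1375, 1349 and 913 FPKM in wild type and 2006, 1808 and 1037 FPKM in NFIA-KO. It had the highest level of all the markers, and its difference of 0.38 ± 0.28 was not called (limma, adjusted p = 0.407). Hbb-b1 has a near-identical neighbour, Hbb-b2, so the split of reads between the pair is uncertain. Alas2, the first enzyme of haem synthesis in red cell precursors, read 15.7 to 21.6 and 13.9 to 26.4 FPKM, and Slc4a1, the anion exchanger of the red cell membrane, 1.88 to 6.11 and 3.74 to 4.8 FPKM. Of 7 tested further erythroid genes 0 were called by limma (2 at an unadjusted p under 0.05), with 5 differences above 0 and 2 below. The genes under 0.05 were the 2 below 0, Fech (-0.36) and Tfrc (-1.53), whose groups did not overlap. Hba-a1, an alpha globin gene, read 1610 to 2091 and 1644 to 3155 FPKM. The epidermal pair Krt5 and Krt14, the keratins of the basal skin layer, was listed at 0 to 0.02 FPKM in all 6 tissue libraries.

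The C2C12 cells served as a reference without these cell classes. For 28 of the 35 markers, and for 25 of the 30 tested ones, the lowest tissue library lay above the highest of the 18 C2C12 libraries, against 19.2% of all genes tested in tissue. Tie1 and Hbb-b1 were listed at 0 in all 18, and Pecam1 and Cdh5 reached at most 0.2 FPKM. The 7 markers for which this did not hold were Cd68, Cd14, Cspg4, Mcam, S100b, Krt5 and Krt14, so these do not tell the tissue's cell classes from a myoblast line. Only 10 markers could be tested in C2C12. Of the other 25, 22 stayed under 0.5 FPKM in every C2C12 library, and the highest value was 1.46 FPKM (Mbp).

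Flt1 and Mcam rose with NFIA expression at every time in C2C12, and S100b reached 1 FPKM only in NFIA-expressing cells. S100b, Lyz2 and Plvap stood under 1 FPKM in all 9 control libraries and passed the filter on low values only through the libraries in which they are high, so that a difference in at least 1 comparison was built in; they are left out of the counts that follow. At day 0, 3 of the other 7 tested markers changed, 2 higher and 1 lower, against 21.2% of 14351 genes tested (12.1% higher, 9.07% lower). At day 7, 5 changed, 4 higher and 1 lower, against 55.5% of genes (26.1% and 29.4%). Under forskolin 4 changed, 3 higher and 1 lower, against 61.6% (28.7% and 32.9%). Over the 12856 genes that reached 1 FPKM in at least 3 control and 3 NFIA-expressing libraries, as these 7 markers did, the shares were 20.7%, 53.8% and 60.3%. These comparisons use separate control libraries but 1 shared estimate of the spread. Flt1 and Mcam were called higher in all 3 comparisons, which 4.58% of the tested genes were. The numbered libraries, replicates 2 and 3 of each group, carry a later date in their table headers. A fit of these alone, with a replicate block, called both genes in all 3 comparisons. The differences were 1.88, 1.75 and 2.06 for Flt1 and 1.53, 1.46 and 0.77 for Mcam. That fit reuses part of the same libraries and is not a second test.

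S100b read 0.12, 0.22 and 0.07 FPKM in control and 2.65, 3.27 and 2.21 FPKM in NFIA-expressing cells at day 0. At day 7 it read 0.06, 0.05 and 0.10 against 1.57, 2.39 and 2.15 FPKM, and under forskolin 0.13, 0.05 and 0.04 against 1.95, 1.01 and 2.13 FPKM. It was near 0 in every control library and above 1 FPKM in every NFIA-expressing library. The differences were 1.70 ± 0.15, 1.5 ± 0.15 and 1.3 ± 0.15. In the fit without a filter on low values, which does not choose S100b for its level, they had adjusted p of 1.71e-06, 1.45e-06 and 5.25e-06 (limma).

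Flt1 read 1.95, 1.43 and 1.62 FPKM in control and 9.90, 8.52 and 8.07 FPKM in NFIA-expressing cells at day 0. At day 7 it read 0.48, 0.39 and 0.66 against 4.38, 4.17 and 4.03 FPKM, and under forskolin 0.38, 0.30 and 0.38 against 6.12, 4.40 and 4.75 FPKM. Its differences were 1.88 ± 0.11, 1.79 ± 0.11 and 2.16 ± 0.11 (limma, adjusted p = 6.12e-09, 1.88e-09 and 1.78e-10). The other VEGF receptor gene, Kdr, was not tested in C2C12; its highest group mean was 1.16 ± 0.23 FPKM, in NFIA-expressing cells under forskolin.

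Mcam read 4.76, 5.12 and 4.96 FPKM in control and 16.2, 17.2 and 15.7 FPKM in NFIA-expressing cells at day 0. At day 7 it read 10.5, 12 and 12.6 against 32.7, 38.1 and 33.5 FPKM, and under forskolin 24.01, 31.5 and 34.8 against 47.5, 56.0 and 58.4 FPKM. Its differences were 1.55 ± 0.12, 1.49 ± 0.12 and 0.83 ± 0.12 (limma, adjusted p = 1.43e-07, 3.86e-08 and 2.08e-05). For S100b, Flt1 and Mcam the tissue labelled NFIA-KO had the lower values and the cells that express NFIA the higher ones, though only S100b was called in tissue and Nfia itself read higher in the libraries labelled NFIA-KO. Of 567 genes called higher with NFIA in all 3 C2C12 comparisons and tested in tissue, 19.9% had all NFIA-KO libraries below all wild-type libraries. Over all 12390 genes tested in both kinds of sample, whatever their direction in C2C12, that share was 18.6%. The shares called lower in tissue were 4.94% and 3.54%.

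**Figure D5:**
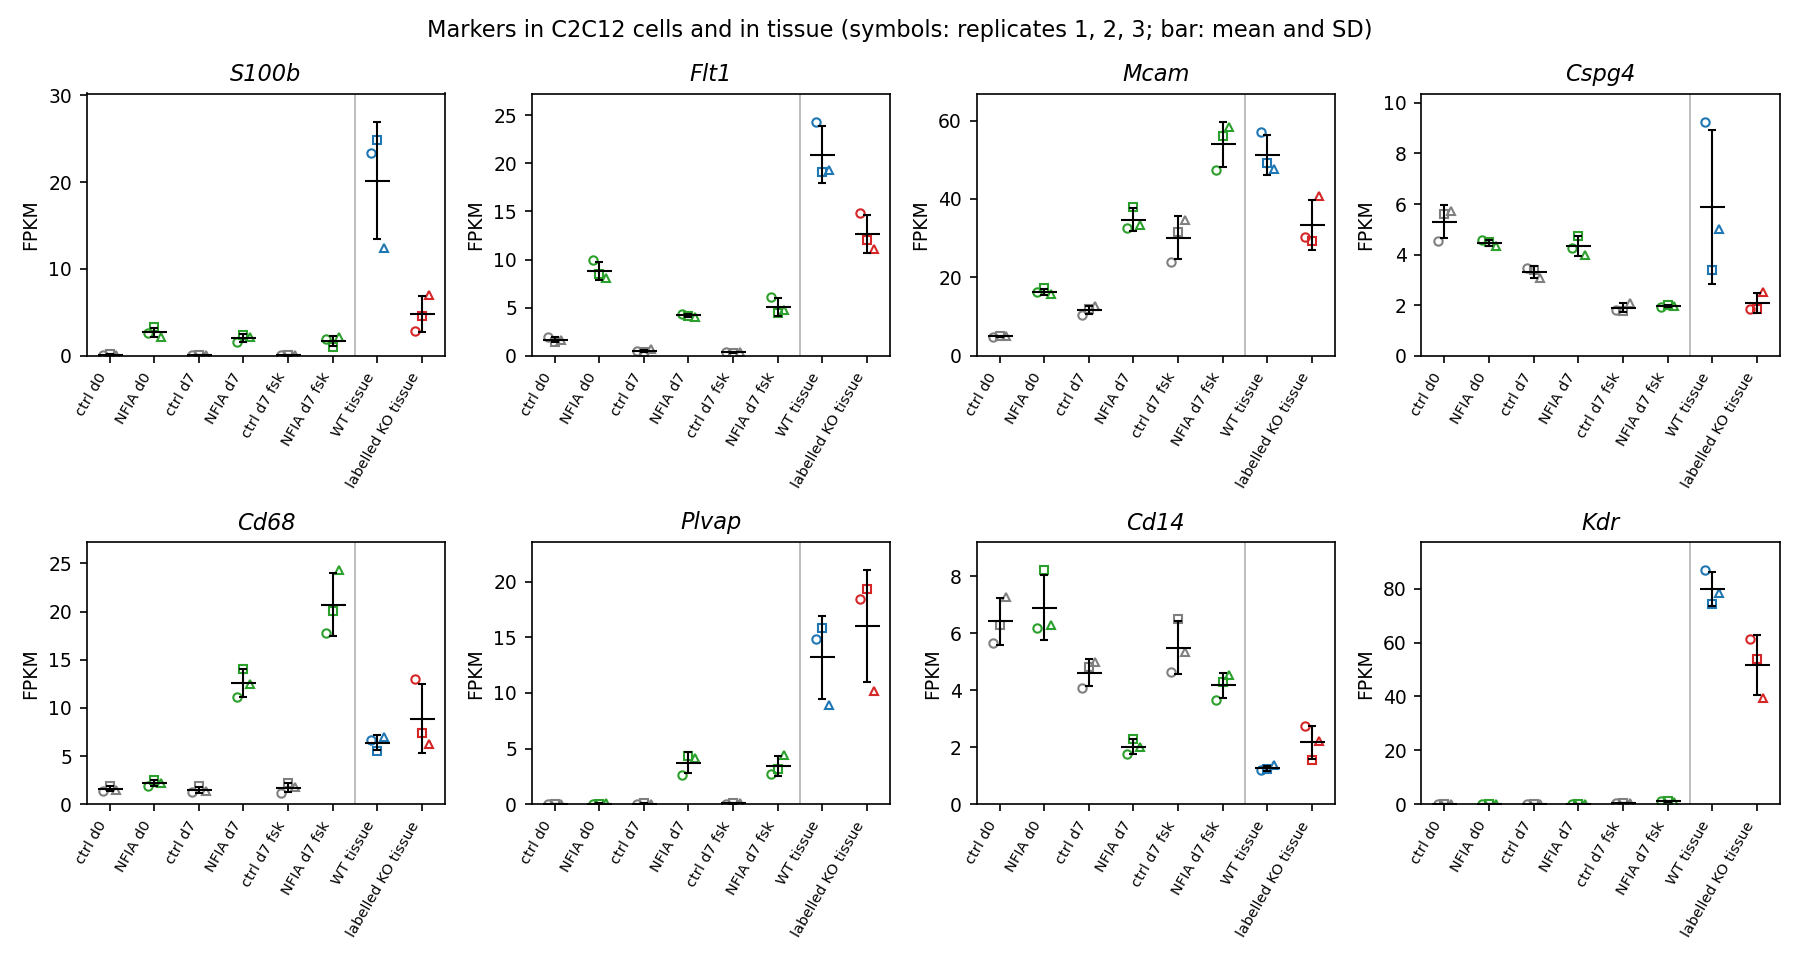
FPKM of 8 markers in the 6 C2C12 groups (control or NFIA-expressing; d0, day 0; d7, day 7; fsk, forskolin) and in wild-type and NFIA-KO-labelled tissue, with the mean and SD of 3 libraries. S100b, Flt1 and Mcam are higher in NFIA-expressing cells at each time and lower in NFIA-KO-labelled tissue, and Cd68 and Plvap are higher with NFIA at day 7.

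Other markers were called in some of the comparisons. Cd68 read 1.63 ± 0.28 FPKM in control and 2.20 ± 0.31 FPKM in NFIA-expressing cells at day 0 (SD, n = 3 each), then 1.5 ± 0.34 and 12.6 ± 1.46 FPKM at day 7 and 1.74 ± 0.50 and 20.7 ± 3.30 FPKM under forskolin. It rose by 2.44 ± 0.15 at day 7 (limma, adjusted p = 2.17e-09) and by 2.99 ± 0.15 under forskolin. Plvap, which encodes the protein of the diaphragms that span capillary pores, stayed at or under 0.12 FPKM in control cells throughout and in NFIA-expressing cells at day 0. It read 2.64, 4.37 and 4.15 FPKM in NFIA-expressing cells at day 7 and 2.70, 3.19 and 4.40 FPKM under forskolin, differences of 2.14 ± 0.14 and 2.0 ± 0.14 (limma without the filter, adjusted p = 9.85e-09 and 1.87e-08). These C2C12 levels of Cd68 were above the tissue's highest value of 13.0 FPKM under forskolin, while those of Plvap stayed below its lowest of 8.95 FPKM.

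Cd14 fell with NFIA by 0.89 ± 0.13 at day 7 (from 4.62 ± 0.48 to 2.02 ± 0.26 FPKM; limma, adjusted p = 2.59e-05) and by 0.32 ± 0.13 under forskolin (limma, adjusted p = 0.0421). The forskolin call was lost without replicate 1 or 2 of the NFIA-expressing cells (adjusted p = 0.147 and 0.0658, limma) or replicate 2 or 3 of control (0.195 and 0.0739), with quantile normalisation (0.36), without the filter (0.068) and with only the groups compared in the fit (0.0787). Lyz2 read 0.17 FPKM in control and 1.99 FPKM in NFIA-expressing cells at day 0, a difference of 1.36 ± 0.09, and 0.0033 and 0.33 FPKM under forskolin, a difference of 0.40 ± 0.09 (limma without the filter, adjusted p = 1.45e-07 and 0.00284). It lay between 0 and 0.44 FPKM in all libraries after day 0. Cspg4 rose by 0.31 ± 0.08 at day 7 (limma, adjusted p = 0.00501), and its differences at day 0 and under forskolin were -0.20 and 0.04. Krt14 fell by 0.80 ± 0.16 at day 0, from 16.4 ± 4.13 to 8.79 ± 0.43 FPKM (limma, adjusted p = 0.00186), and was under 1 FPKM at day 7. With a pseudocount of 0.1 the day 0 difference was -0.86 ± 0.35 and not called (limma, adjusted p = 0.0951), while that of day 7 was called (-0.89 ± 0.35, limma, adjusted p = 0.0408). Egfl7 was called in none of the 3 comparisons. By the test of the difference itself, 3 of the 7 markers had an NFIA effect at day 7 unlike that at day 0, against 45.3% of all tested genes (19.8% more positive, 25.5% more negative): Cd68 and Cspg4 more positive and Cd14 more negative.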

How the data were processed

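Gene-level FPKM values were deposited by the authors, 1 table per library. Per the submitters' processing notes, TopHat and Cufflinks were used with the mouse build mm9; no version or annotation is named. FPKM is scaled for gene length and library size, so relative composition alone can move it. Rows of one symbol at overlapping loci were summed. Tests used limma 3.58.1 in R 4.3.3 on log2(FPKM + 1) with a variance trend, over genes at 1 FPKM or more in at least 3 libraries of the fit, with two-sided p-values adjusted by Benjamini-Hochberg over all genes tested and called under 0.05. The 6 tissue libraries and the 18 C2C12 libraries were fitted separately. A log2 difference on this scale understates the change of low genes. The fits were tested on simulated data. Where the C2C12 titles carry no number, a library is called replicate 1; by the dates in the table headers, those libraries and the tissue share one and the numbered C2C12 libraries a later one.

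The markers and the other gene lists were chosen with earlier results of these data known. Every marker was accounted for; of each other list, up to 3 called genes with the largest change and no overlap and up to 2 with the highest wild-type level are named, and some are not reported here. Alternatives were the pseudocount (0.1), no filter, quantile and median-of-ratios scaling, no trend, a replicate block, zeros as missing, a muscle covariate, fits of the groups compared only, and leaving out each library. Promoter windows are RefSeq's on GRCm38.p6 and were not mixed with mm9 coordinates.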

Additional observations from a re-analysis of the deposited data

Results flagged for a closer look

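For 5 of the 10 markers tested in C2C12 cells, the effect of NFIA differed between day 7 and day 0, against 45.3% of 14351 genes. The test was the interaction term of the limma fit over all 18 libraries, and the count is not read as a property of the markers. The effect was larger at day 7 by 2.16 ± 0.21 (SE) on the log2(FPKM + 1) scale for Cd68 (limma, adjusted p = 8.55e-07), by 2.08 ± 0.20 for Plvap (limma, adjusted p = 4.87e-07) and by 0.51 ± 0.12 for Cspg4 (limma, adjusted p = 0.00227). It was lower at day 7 for Lyz2, with a difference of -1.32 ± 0.15 (limma, adjusted p = 2.79e-06), and for Cd14, with -0.98 ± 0.18 (limma, adjusted p = 0.000412). Plvap and Lyz2 passed the filter on low values only through the NFIA-expressing libraries in which they are high; without the filter their adjusted p were 1.02e-06 and 2.59e-06 (limma). Lyz2 was at 2.07 FPKM at most in these cells, and its call was lost when any of the 3 NFIA-expressing day 0 libraries was left out, because fewer than 3 libraries then reached 1 FPKM and the gene was not tested. The calls of Cd68, Plvap, Cspg4 and Cd14 held in each fit without 1 library.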

How the results depend on the processing

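In tissue, 973 genes and 1 marker were called. Without a filter 40 genes and 0 markers were, with the muscle genes as a covariate 1 and 0, and 2 markers (Flt1 and S100b) under quantile and median-of-ratios scaling and with zeros as missing. Without 1 library, 19 (wild-type replicate 1) to 1361 genes (wild-type replicate 2) and 0 to 3 markers were called; it was 53 genes without wild-type replicate 3 and 148, 109 and 541 without NFIA-KO replicates 1, 2 and 3. The muscle covariate reversed Cd68 (-0.25), Csf1r (-0.35), Lyz2 (-0.98), Cd14 (-0.0751), Mrc1 (-0.0387), C1qa (-0.0132), C1qb (-0.16), C1qc (-0.32), Tyrobp (-0.45), Tie1 (0.17), Emcn (0.26) and Rgs5 (-0.10); the muscle genes are themselves higher in NFIA-KO, and the cause was not tested. Leaving out 1 library reversed differences near 0, none of them called: Ptprc (-0.27 to 0.0063), Lyz2 (-0.33 to 0.35), Cldn5 (-0.0504 to 0.53), Pecam1 (-0.03 to 0.17), Tek (-0.0425 to 0.22), Esam (-0.0123 to 0.15), Rgs5 (-0.13 to 0.21), Slc4a1 (-0.14 to 0.51), Tyrobp (-0.0069 to 0.38), Alas2 (-0.0384 to 0.40) and Tie1 (-0.31 to 0.0134). It also reversed, in C2C12, Cd14 at day 0 (-0.0288 to 0.17), Egfl7 (-0.14 to 0.15) and Lyz2 (-0.0382 to 0.17) at day 7, Egfl7 under forskolin (-0.0818 to 0.64) and the day 7 minus day 0 effect on Mcam (-0.12 to 0.0019). That effect also reversed for Flt1 (0.50 and 0.29) and S100b (0.0413 and 0.0387) with a pseudocount of 0.1 and under quantile normalisation, and for Krt14 (-0.0255) with a pseudocount of 0.1. Without a filter, 9 markers were called at day 0, 11 at day 7, 13 under forskolin and 12 for the day 7 minus day 0 effect. Over all genes the calls also became more, from 3036, 7962, 8845 and 6505 with the filter to 3488, 9521, 10518 and 7578. These marker counts are not read as a property of the markers. The glial class had a mean log2(FPKM + 1) difference of -0.87, a smaller drop than in its sum. Over all tested genes, replicate numbers paired the tissue libraries weakly or not at all: same-numbered libraries deviated together with correlations of -0.00912, 0.111 and 0.143. Single markers differed in this. The replicate block narrowed the SE of some, as of Hbb-b1 (0.28 to 0.13), and widened that of others, as of S100b (0.34 to 0.38). With the replicate block 799 genes were called, with S100b at an adjusted p of 0.0532 and Flt1 at 0.0459 (limma). In the numbered C2C12 libraries with a replicate block, Egfl7 at day 7 reversed (-0.0848), and Lyz2 was not tested. The read depth is unknown, so no limit of detection is given.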

Other observations

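The neighbours of some markers changed more than the markers did. The tables list 9 of the 35 markers in merged loci with other genes, 7 of them with a gene that reached 1 FPKM in a tissue library. Agpat2, which encodes an enzyme of phospholipid and triglyceride synthesis and shares the locus of Egfl7, read 950.1, 306 and 670.3 FPKM in wild type and 66.8, 21.2 and 31.1 FPKM in the libraries labelled NFIA-KO. It fell by 4.00 ± 0.52 (SE) on the log2(FPKM + 1) scale (limma, adjusted p = 0.0177), all 3 NFIA-KO libraries lying below wild type. Fam69b at the same locus read 26.1, 4.41 and 9.82 FPKM and 0.56, 0.30 and 0.49 FPKM, and fell by 3.01 ± 0.52 (limma, adjusted p = 0.0294). Egfl7 itself, at 166 to 190 and 120 to 158 FPKM, was not called. Apex2, listed with Alas2, read 17.8 to 29.0 FPKM in wild type and 3.19 to 9.04 FPKM in NFIA-KO.

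Replicate 1 of control C2C12 cells at day 7 was the only C2C12 library with a value above 0 for C1qa (0.13 FPKM), C1qc (0.07 FPKM), Tyrobp (0.16 FPKM) and Emr1 (0.03 FPKM), macrophage genes that were listed at 0 in the other 17. Its table header carries the same date as those of the tissue libraries, but so do those of the other C2C12 libraries without a number in their titles. C1qb read 0.04 FPKM in this library and 0.01 FPKM in replicate 2 of control cells at day 0. These values lie far below those of tissue, where C1qa was at 12.4 FPKM or more.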
